A study of Mus musculus with 20 samples.

Results

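The genes described here are 10 members of the CD40 and NF-kappa-B response, namely Cd40, Cd83, Nfkbia, Nfkb1, Nfkb2, Rel, Relb, Traf1, Tnfaip3 and Icam1. They were chosen by symbol, and all 10 were among the 16047 genes of the deposited count matrix. They were followed in single B lineage cells across 4 sort gates and 7 annotated states, and against the surface CD86 signal recorded for each cell at the sort.

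The cells were eYFP-positive B cells and plasma cells from lymph nodes of C57BL/6 mice. The mice had received NP-KLH, a hapten joined to a carrier protein, with Sigma Adjuvant System, and all cells were taken on day 15 of the primary response, 4 days after tamoxifen by gavage. Libraries followed FB5P-seq, a protocol that reads transcript 5′ ends from cells index-sorted into plates. The 20 plates formed 2 groups named by sampleID, 10 of C57BL/6F (626 cells) and 10 of C57BL/6M (741 cells), and the deposited table of cells gives these letters as the sex. Every group shared the strain, the immunization, tamoxifen and the eYFP label. The Cre driver, the eYFP construct, the age and the number of mice are not given in the sources used here. Sex, animal, sampleID and handling therefore cannot be told apart, and p-values measure only the spread between plates.

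The gates were named light zone (367 cells), dark zone (325), pre-plasma (282) and plasma (393). By the authors' annotation 480 cells were plasma cells, 452 dark zone cells and 278 light zone cells, and 48 were between the zones and are called light-to-dark zone cells. A further 63 were memory-like and 29 activated cells on the way to plasma cells (called pre-plasma), and 17 were pre-memory cells. A gate rests on surface signal at the sort, whereas the annotation may rest on the same transcripts that are compared here, so differences between states describe the states. The gates were mixed in annotation. The light zone gate held 189 light zone, 139 dark zone and 26 light-to-dark zone cells, and the dark zone gate held 249 dark zone and 61 light zone cells. The pre-plasma gate held 128 plasma cells, 29 activated and 27 memory-like cells, as well as 11 light-to-dark, 23 light and 63 dark zone cells, and the plasma gate held 351 plasma and 33 memory-like cells.

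CD40 is a receptor of the TNF receptor family on B cells. In the light zone of a germinal centre, B cells present antigen to T follicular helper cells, whose CD40 ligand engages CD40. TRAF adaptors below the receptor start a canonical arm, in which IkB-alpha is degraded and dimers holding p50, RelA or c-Rel enter the nucleus, and a slower non-canonical arm, in which p100 is processed to p52 that pairs with RelB. Selected cells return to the dark zone to divide or leave as memory cells or plasma cells. Among the genes followed here, Cd40 encodes the receptor, and Traf1 encodes an adaptor that is itself induced by the pathway. Rel and Relb encode c-Rel and RelB, Nfkb1 the p50 precursor p105, and Nfkb2 the p52 precursor p100. Nfkbia encodes IkB-alpha and Tnfaip3 encodes A20, a ubiquitin-editing enzyme, and both act as negative feedback. Cd83 and Icam1 are induced surface genes, for a stabiliser of MHC class II and CD86 on the surface and for an adhesion molecule that binds LFA-1.

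Several of these genes are themselves targets of NF-kappa-B, and their upstream DNA can carry its site. RefSeq windows around the start site (GRCm38.p6, the assembly of the files' mm10 build) were given for 6 of the 10 genes, and the kappa-B consensus, a site of 10 bases known by that name, was searched on both strands. It was present in windows of 4 of these 6 genes (Nfkbia, Rel, Nfkb2 and Tnfaip3) and in none of the windows of Traf1 and Icam1. Over all 27025 genes, 5.14% had a match in a window. By window, 6 of the 9 of these genes held a match, beside 4.51% of all 32851 windows of 300 bases. All 3 Nfkb2 windows are among the 6, and the later ones overlap and share a match. The 250 bases before a start site are shown for Nfkbia, Rel and Nfkb2, because Rel was called lower in plasma than in germinal centre cells and Nfkbia and Nfkb2 were not, and capitals mark the matches, which overlap in Rel and in the first Nfkb2 stretch.
Nfkbia: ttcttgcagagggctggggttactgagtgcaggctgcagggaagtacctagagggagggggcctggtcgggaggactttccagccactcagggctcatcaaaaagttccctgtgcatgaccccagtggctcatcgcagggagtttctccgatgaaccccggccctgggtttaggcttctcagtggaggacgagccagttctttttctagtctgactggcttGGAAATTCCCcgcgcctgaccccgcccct
Rel: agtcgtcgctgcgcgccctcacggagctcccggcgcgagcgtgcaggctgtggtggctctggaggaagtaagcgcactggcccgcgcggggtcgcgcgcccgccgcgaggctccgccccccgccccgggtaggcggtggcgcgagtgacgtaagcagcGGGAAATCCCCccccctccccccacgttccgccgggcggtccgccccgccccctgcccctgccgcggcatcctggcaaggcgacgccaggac
Nfkb2: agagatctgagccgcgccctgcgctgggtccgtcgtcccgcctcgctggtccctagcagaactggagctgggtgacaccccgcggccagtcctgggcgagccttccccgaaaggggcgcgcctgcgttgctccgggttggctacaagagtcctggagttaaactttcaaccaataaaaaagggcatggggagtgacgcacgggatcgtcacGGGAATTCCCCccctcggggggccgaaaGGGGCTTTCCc
The Nfkbia stretch is chr12:55492648-55492897 on the minus strand, with the match starting 29 bases before the start site. The Rel stretch is chr11:23770970-23771219, also on the minus strand, with matches starting 92 and 91 bases before the start. The Nfkb2 stretch is chr19:46304487-46304736 on the plus strand and precedes the first of 3 listed starts, with matches 39, 38 and 11 bases before it. A match is a description of the letters in a window, not evidence of binding. Nor does a window without a match lack every similar stretch, because only exact matches to the consensus were counted. The Icam1 window holds ggaaattcct, which differs from the Nfkbia match in its last base. The genes themselves lie at chr2:165055614-165071654 (Cd40), chr13:43785112-43803133 (Cd83), chr12:55489409-55492647 (Nfkbia), chr3:135584655-135691969 (Nfkb1), chr19:46300994-46312400 (Nfkb2), chr11:23736847-23770969 (Rel), chr7:19606217-19629438 (Relb), chr2:34941750-34961812 (Traf1), chr10:19000910-19015410 (Tnfaip3) and chr9:21015940-21028814 (Icam1).

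The matrix held 1367 cells with a median of 60536 counts each (lowest 261, highest 736478), and no cell name was shared between plates. Plate totals ran from 3208858 to 11908095 counts, apart from plate 6 of C57BL/6F, which held 10 cells and 5979 counts. Counts of Cd83 were found in 655 cells (47.9%) and of Nfkbia in 604 (44.2%). Icam1, Traf1, Nfkb1, Cd40 and Rel were found in 12.4% to 16.2% of cells, Nfkb2 in 9.80%, Relb in 5.49% and Tnfaip3 in 4.10%. No member reached the highest count in the matrix, 1024 per gene and cell. Levels are given as CPM, the counts of a gene scaled to a fixed total per pool of cells. In such pools, fewer cells that express a gene and less RNA per cell cannot be told apart.

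Across the gates, Cd83 fell in steps, whereas Nfkbia kept similar levels in plasma and pre-plasma gates. Over plates with at least 5 cells in a gate, Cd83 stood at 1375, 1964.5 and 4125 CPM (lowest, median, highest plate) in the light zone gate and at 292, 1052 and 2026 CPM in the dark zone gate. It stood at 33.2, 205 and 624 CPM in the pre-plasma gate and at 0, 4.63 and 261 CPM in the plasma gate, where 3 of 19 plates had none. The light zone and pre-plasma ranges of Cd83 did not overlap, while neighbouring gates overlapped in part. Nfkbia had medians of 670 CPM (141 to 1431) in the light zone gate, 260 CPM (108 to 594) in the dark zone gate, 452 CPM (0 to 768) in the pre-plasma gate and 373 CPM (1.52 to 1249) in the plasma gate. All 4 ranges of Nfkbia overlapped, and its lowest median was that of the dark zone gate.

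**Figure D1:**
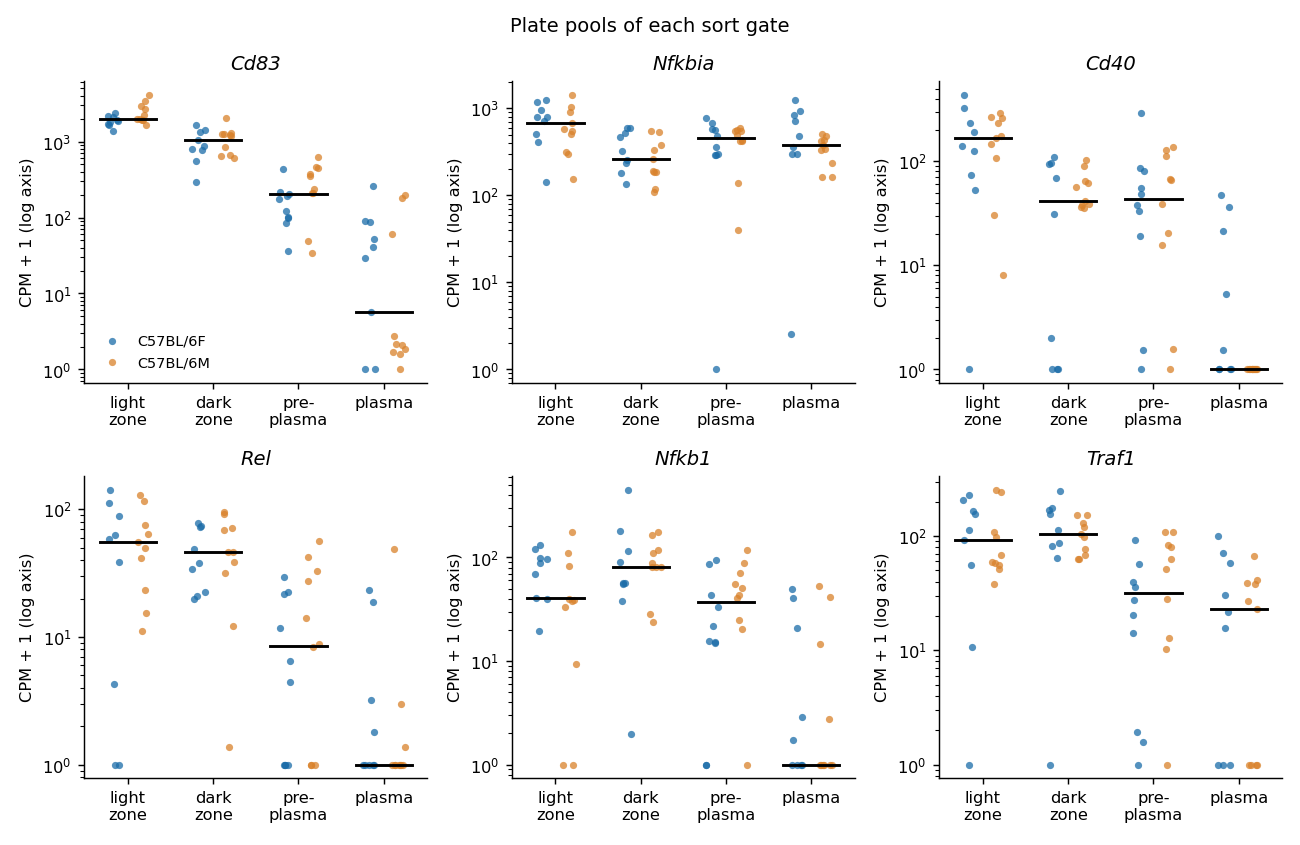
Levels of Cd83, Nfkbia, Cd40, Rel, Nfkb1 and Traf1 in the 4 sort gates, as CPM plus 1 on a log axis, with 1 point per plate coloured by sampleID and a bar at the median of all plates. Cd83 drops from a light zone median of 1964.5 to a plasma median of 4.63 CPM, and Nfkbia has pre-plasma and plasma medians of 452 and 373 CPM.

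The receptor gene Cd40 had a median of 166 CPM (0 to 434) in the light zone gate, 40.5 CPM (0 to 109) in the dark zone gate and 42.5 CPM (0 to 292) in the pre-plasma gate. In the plasma gate it was at 0 on 14 of 19 plates, with a highest plate at 46.4 CPM. All 10 C57BL/6M plates were among those at 0, with no count in 221 cells, and 3 counts in those cells would be 0.177 CPM. In C57BL/6F, 6 of 172 plasma gate cells held 100 counts in all. So in the plasma gate Cd40 counts came from a few C57BL/6F cells.

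Of the subunits, Rel had medians of 54.5, 45.2, 7.54 and 0 CPM in the light zone, dark zone, pre-plasma and plasma gates, and was at 0 on 12 of 19 plasma plates. Nfkb1 had medians of 40.1, 80.1, 35.9 and 0 CPM in the same order. Nfkb2 had medians of 67.7, 33.9, 16.1 and 9.28 CPM. Relb was sparse, with medians of 7.40, 0, 3.93 and 0 CPM and 7, 10, 6 and 16 plates at 0. The plate ranges of these 4 genes overlapped in every pair of gates.

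Traf1 had medians of 91.7 CPM in the light zone, 103 in the dark zone, 30.9 in the pre-plasma and 21.9 in the plasma gate. Icam1 had medians of 152, 67.3, 48.4 and 25 CPM in that order. Tnfaip3 was at 0 on 9, 12, 7 and 12 plates, and its highest plate in any gate stood at 93.5 CPM, in the pre-plasma gate. Traf1 was at 0 on 1 of 19 plates in each germinal centre gate, and Icam1 on 4 of 19 in the dark zone gate and 2 of 19 in the light zone gate, so Tnfaip3 was the sparser of these genes.

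Dark and light zone gates were compared on 19 plates, with counts summed per plate and gate. Cd83 was lower in the dark zone gate, at 1146 ± 484 CPM against 2373 ± 702 CPM (SD, n = 19 plates, scaled by TMM). The log2 change was -1.13 ± 0.14 (SE, derived from the F statistic of the test). Its adjusted p was 5.05e-05 in edgeR's quasi-likelihood test with Benjamini-Hochberg adjustment, the threshold being 0.05. The gene was lower on 17 of 19 plates, although the plate ranges overlapped. Cd83 was the only call among the 8 members that passed the filter on low counts, and 0.305% of the 5904 genes tested were called, 0.119% lower. Relb and Tnfaip3 did not pass that filter. The median change was -1.10 over the 8 members and -0.11 over all genes tested.

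Nfkbia stood at 352 ± 184 CPM in the dark zone gate and 739 ± 376 CPM in the light zone gate, and was lower on 15 of 19 plates. Its log2 change of -1.07 ± 0.26 missed the threshold in edgeR (adjusted p = 0.075) and passed it in DESeq2 (adjusted p = 0.00489). Cd40 behaved likewise, with 54.0 ± 38.1 against 181 ± 119 CPM, a change of -1.91 ± 0.61 and adjusted p-values of 0.396 in edgeR and 0.00405 in DESeq2. Icam1 (-1.14 ± 0.63) and Nfkb2 (-1.19 ± 0.79) had negative estimates that were not called, and Traf1 (0.20 ± 0.46), Rel (-0.12 ± 0.71) and Nfkb1 (0.59 ± 0.66) had estimates within about 1 standard error of 0. Nfkb1 had a higher mean in the dark zone gate, 114 against 68.5 CPM, yet was lower there on 11 of 19 plates. Within C57BL/6M alone Cd83 was called (-1.18, adjusted p = 0.00284 in edgeR), and within C57BL/6F the estimate was -1.07 with an adjusted p of 0.289 in edgeR, in a fit that called 0 of 5645 genes and had 143 at an unadjusted p under 0.05.

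The pre-plasma gate was next compared with the 2 germinal centre gates pooled. There 4 of 10 members fell, namely Cd83, Rel, Traf1 and Cd40, and none rose, where 15.2% of 7150 genes were called in either direction, 8.14% lower and 7.09% higher. Cd83 stood at 216 ± 158 CPM in the pre-plasma gate against 1801 ± 473 CPM (SD, n = 19 plates), lower on all 19 plates with no overlap. Its log2 change was -3.38 ± 0.28 (adjusted p = 4.83e-10 in edgeR), with -3.67 within C57BL/6F and -3.08 within C57BL/6M, both called. Rel, the c-Rel gene, stood at 14.0 ± 15.8 against 55.9 ± 28.8 CPM, a change of -3.20 ± 0.86 (adjusted p = 0.0096 in edgeR), lower on 17 plates.

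Traf1 stood at 42.0 ± 35.6 CPM in the pre-plasma gate against 117 ± 58.1 CPM, a change of -2.06 ± 0.59 (adjusted p = 0.0159 in edgeR), lower on 14 of 19 plates. Cd40 stood at 47.9 ± 42.6 against 123 ± 68.9 CPM, a change of -1.71 ± 0.57 (adjusted p = 0.0429 in edgeR), lower on 16 plates. The plate ranges of Rel, Traf1 and Cd40 overlapped, and none of these 3 was called within either sampleID alone, with edgeR adjusted p-values from 0.0896 to 0.316. Icam1 (-1.29), Nfkb1 (-1.26), Nfkb2 (-1.43), Nfkbia (-0.44) and Relb (-0.87) had negative estimates with edgeR adjusted p-values from 0.0926 to 0.718. Tnfaip3 was at 20.9 ± 27.4 against 8.16 ± 10.1 CPM and was not called (1.15 ± 1.66). The members' median change was -1.36, beside -0.19 for all genes tested.

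The pre-plasma gate held 97 cells annotated as germinal centre states, 34.4% of its 282 cells, and these carried 70.9% of its Cd83 counts, 62.3% of Traf1, 60.0% of Rel, 49.2% of Nfkb1 and 41.9% of Icam1. They carried 37.9% of Cd40 and 19.3% of Nfkbia counts. The 29 activated cells carried 41.5% of the Cd40 and 27.7% of the Nfkbia counts. The gate was therefore compared again without the 97 cells, an alternative chosen after seeing the data. Cd83 then changed by -5.15 ± 0.60, Rel by -4.95, Traf1 by -4.06 ± 0.88, Nfkb1 by -4.88 ± 1.24 and Icam1 by -1.97 against the germinal centre gates, all called, and Cd40 by -2.08 ± 0.87 with an edgeR adjusted p of 0.0963. Nfkbia changed by -0.43 (edgeR adjusted p = 0.398). In that fit 5 of the 8 members tested were called, where 1420 of 6794 genes were called, 930 lower and 490 higher.

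From the pre-plasma to the plasma gate, Cd40, Cd83 and Nfkb1 fell, 3 of the 7 members tested, where 18.1% of 6564 genes were called, 9.69% lower and 8.42% higher. Cd40 stood at 5.27 ± 12.5 CPM in the plasma gate and 45.9 ± 40.5 CPM in the pre-plasma gate (SD, n = 19 plates), a ratio of means of 8.72, and was lower on 16 plates. Its fitted log2 change was -6.28 ± 1.33 (adjusted p = 0.00137 in edgeR), which exceeds the ratio of means because 14 plasma pools were at 0. Cd83 stood at 49.7 ± 74.0 against 208 ± 153 CPM, lower on 18 of 19 plates, with a change of -4.01 ± 0.83 (adjusted p = 0.000924 in edgeR). Nfkb1 stood at 10.8 ± 17.6 against 40.6 ± 32.0 CPM, lower on 13 plates, with a change of -4.43 ± 1.45 (adjusted p = 0.034 in edgeR). Plate ranges overlapped for all 3 genes.

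Nfkbia was level between these gates, at 425 ± 277 CPM in the plasma gate and 417 ± 169 CPM in the pre-plasma gate, with a change of -0.07 ± 0.34 that corresponds to no called difference (adjusted p = 0.922 in edgeR). Icam1 (-1.63 ± 0.97), Nfkb2 (-1.74 ± 1.14) and Traf1 (-1.20 ± 1.22) were not called, and Rel, Relb and Tnfaip3 did not pass the filter. Within C57BL/6F none of the 3 called members passed (Cd40 -2.94, Cd83 -2.62, Nfkb1 -3.54; edgeR adjusted p 0.326, 0.19 and 0.454), and within C57BL/6M Cd83 did (-5.76, edgeR adjusted p = 0.00137) while Nfkb1 did not (-5.21, 0.0832). Without the 97 cells annotated as germinal centre, 0 of the 5 members tested were called, with 1 at an unadjusted p under 0.05 in edgeR, although 652 of 6094 genes were called. Cd83 then changed by -1.74 ± 0.82 (adjusted p = 0.213 in edgeR), and Cd40 and Nfkb1 did not pass the filter. DESeq2 was not run on that subset. Immunoglobulin genes made up 8.0% of counts in the plasma gate and 3.05% in the pre-plasma gate, and the 3 calls held when these genes were left out.

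**Figure D2:**
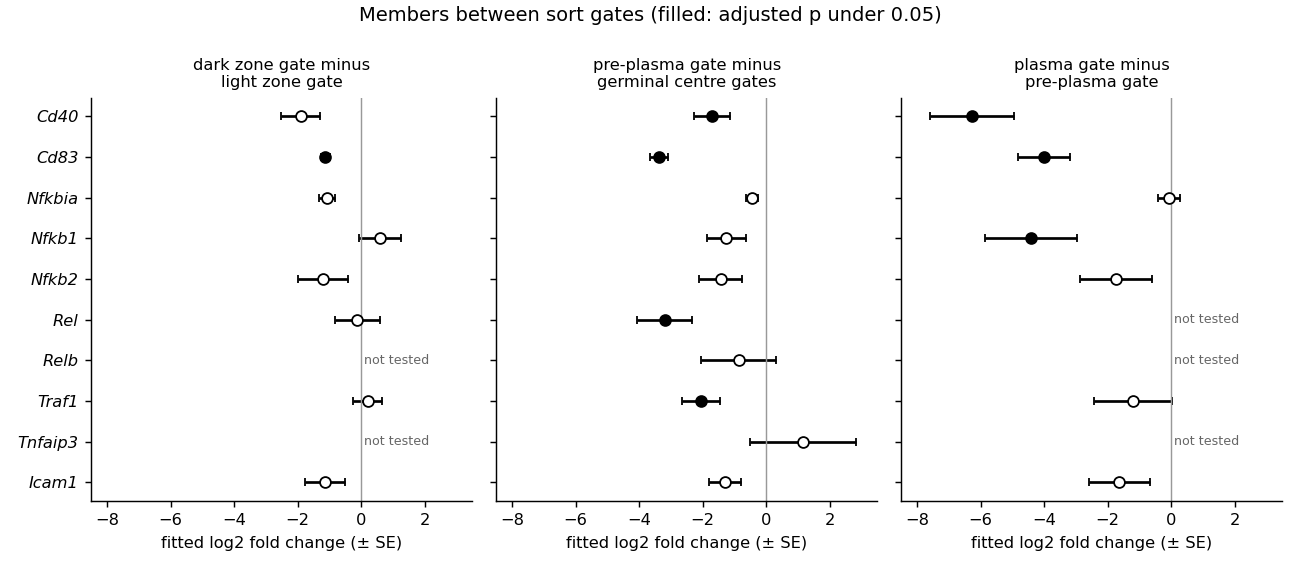
Fitted log2 fold change of each member in the 3 gate comparisons, with filled points for an adjusted p under 0.05. Lines show 1 standard error, derived from the F statistic of the test. Cd83 is filled in all 3 panels, at -1.13, -3.38 and -4.01, and Nfkbia in none, at -1.07, -0.44 and -0.07.

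Among annotated states, dark zone cells held less Cd83 and less Nfkbia than light zone cells, 2 of the 9 members tested, where 1.41% of 5447 genes were called, 0.569% lower and 0.845% higher. Cd83 stood at 946 ± 299 CPM in dark zone cells and 3296 ± 903 CPM in light zone cells (SD, n = 19 plates), lower on all 19 plates with no overlap, a log2 change of -1.83 ± 0.10 (adjusted p = 2.99e-13 in edgeR). Nfkbia stood at 301 ± 165 against 904 ± 411 CPM, lower on 18 plates, a change of -1.74 ± 0.28 (adjusted p = 0.000344 in edgeR). The median change was -0.87 over the 9 members and 0.44 over all genes tested, or 0.07 without the plate block. Relative to the shift of all genes, the falls of Cd83 and Nfkbia are larger than these values.

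Nfkbia kept its size but not its call within C57BL/6F (-1.76, adjusted p = 0.222 in edgeR) and in G1 cells alone (-2.46, adjusted p = 0.27 in edgeR). Cd40 stood at 77.0 ± 61.4 CPM in dark zone cells and 172 ± 121 CPM in light zone cells, lower on 15 plates, with an edgeR adjusted p of 0.293 and a DESeq2 adjusted p of 0.00445. Icam1 (-0.94), Nfkb2 (-0.87) and Relb (-0.44) were not called, and Nfkb1 (0.15), Rel (0.24) and Traf1 (0.21) had small positive estimates.

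Plasma cells held less of 6 of the 9 members tested than germinal centre B cells, which here join the light-to-dark zone cells with those of both zones. These were Cd83, Cd40, Rel, Nfkb1, Traf1 and Icam1, where 30.9% of 7649 genes were called, 15.8% lower and 15.1% higher. Cd83 stood at 43.9 ± 54.4 against 1435 ± 373 CPM (SD, n = 19 plates), a ratio of 32.7, with no overlap between plates (log2 change -6.08 ± 0.62, adjusted p = 1.54e-08 in edgeR). Rel stood at 3.90 ± 7.65 against 48.3 ± 24.1 CPM, a ratio of 12.4, and was lower on all 19 plates although the ranges overlapped (-5.50 ± 0.86, adjusted p = 1.46e-05 in edgeR). Cd40 stood at 9.96 ± 17 against 105 ± 65.0 CPM, a ratio of 10.6, lower on 18 plates (-6.34 ± 1.06, adjusted p = 4.13e-05 in edgeR). These 3 genes had the largest ratios among the called members.

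Nfkb1 stood at 17.8 ± 28.6 CPM in plasma cells against 79.1 ± 29.6 CPM, lower on 18 plates (-4.63 ± 1.05, adjusted p = 0.0012 in edgeR). Traf1 stood at 25.4 ± 24.2 against 106 ± 50.7 CPM, also lower on 18 plates (-3.03 ± 0.76, adjusted p = 0.00283 in edgeR). Icam1 stood at 29.7 ± 17.2 against 110 ± 70.9 CPM, lower on 17 plates (-1.90 ± 0.45, adjusted p = 0.00185 in edgeR). All 3 had overlapping plate ranges.

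The inhibitor gene Nfkbia was not among the calls, at 429 ± 245 CPM in plasma cells and 483 ± 201 CPM in germinal centre B cells, lower on 11 of 19 plates (-0.40 ± 0.29, adjusted p = 0.318 in edgeR). Nfkb2 (-1.85 ± 0.77, adjusted p = 0.0719 in edgeR) and Tnfaip3 (-0.59 ± 1.41) also missed the threshold, and Relb was filtered out. The median change was -3.03 over the 9 members and -0.25 over all genes. Within C57BL/6F alone Cd40 (-3.95, edgeR adjusted p = 0.0773) and Nfkb1 (-3.87, 0.0619) lost their call, within C57BL/6M Traf1 (-2.98, 0.0657) and Icam1 (-2.02, 0.0849) did, and in G1 cells Icam1 did (-2.25, 0.211).

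When cells were split by gate and state together, Cd83 went with the state, and with the gate only in part. Pooled over plates and not scaled by TMM, light zone cells held 3251 CPM of Cd83 in the light zone gate (189 cells), 3087 CPM in the dark zone gate (61 cells) and 738 CPM in the pre-plasma gate (23 cells). Those 23 cells had a median of only 18462 counts each, and the 2 plates with at least 3 of them stood at 0 and 1118 CPM. Dark zone cells held 1341 CPM in the light zone gate (139 cells), 644 CPM in the dark zone gate (249 cells) and 829 CPM in the pre-plasma gate (63 cells). Light zone cells thus had alike Cd83 levels in the light and dark zone gates, whereas dark zone cells had a higher level in the light zone gate. Plasma cells held 54.8 CPM in the pre-plasma gate and 29.4 CPM in the plasma gate.

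Nfkbia in light zone cells was 762, 745 and 393 CPM in the light zone, dark zone and pre-plasma gates. In dark zone cells it was 399, 211 and 347 CPM in the same gates, and in plasma cells 401 CPM in the pre-plasma gate and 371 CPM in the plasma gate. Cd40 was 190 CPM in light zone cells of the light zone gate and 41.0 CPM in dark zone cells of the dark zone gate. It was 143 CPM in dark zone cells of the light zone gate and 118 CPM in light zone cells of the dark zone gate. Plate medians gave another order, with 183 CPM in light zone cells of the dark zone gate and 141 CPM in those of the light zone gate. Plasma cells of the pre-plasma gate held 16.5 CPM of Cd40 and those of the plasma gate 2.80 CPM. These splits were not tested.

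**Figure D3:**
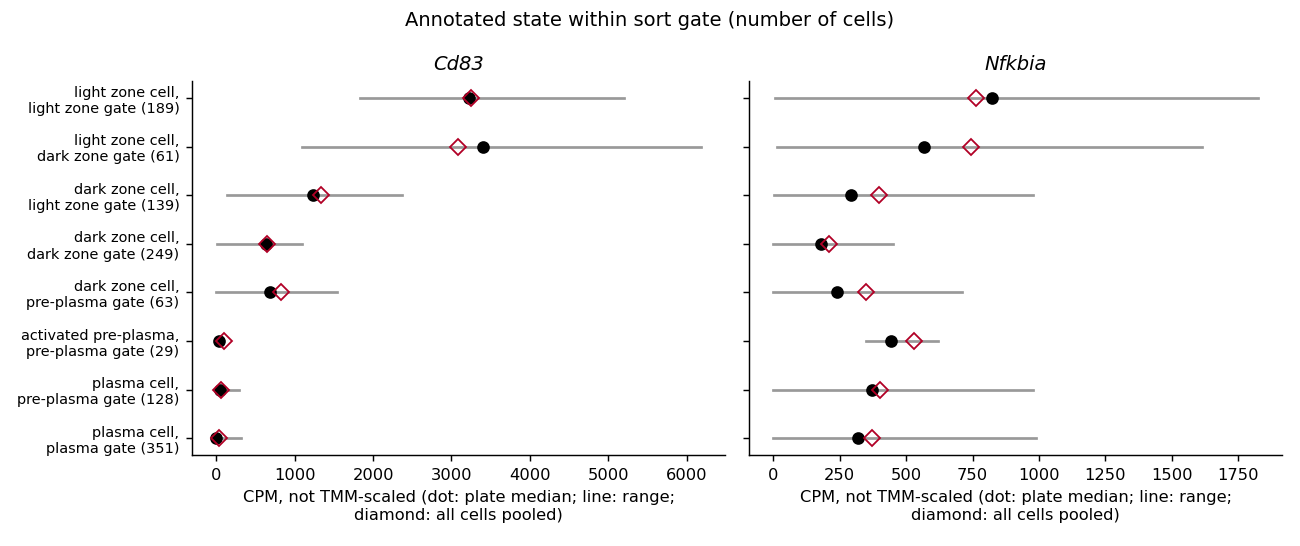
Levels of Cd83 and Nfkbia in CPM for 8 combinations of annotated state and sort gate, with the plate median as a dot, the plate range as a line and the level of all cells pooled as a diamond. Pooled Cd83 is 3251 and 3087 CPM in light zone cells of the light and dark zone gates, and pooled Nfkbia is 401 and 371 CPM in plasma cells of the pre-plasma and plasma gates.

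Within states, Cd83 also went with the annotated cell cycle phase. Light zone cells held 3812 CPM of Cd83 in G1, 3165 CPM in S and 1349 CPM in G2M, and dark zone cells 1181, 1057 and 589 CPM. Nfkbia in light zone cells was 854, 852 and 348 CPM in the same order, and in dark zone cells 287, 263 and 322 CPM. Cd83 was lowest in G2M in both states. Pooled Nfkbia was lowest in G2M among light zone cells and near level across phases in dark zone cells. The light zone cells in G2M numbered 54, and over their 10 plates with at least 3 such cells the Nfkbia median was 506 CPM (0 to 944). In plasma cells Nfkbia was 414, 460 and 240 CPM. All these levels by phase were pooled over plates without TMM scaling, apart from that median, and differences between phases were not tested.

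For the smaller states, counts were summed per sampleID and state, so each state had 2 pools. Light-to-dark zone cells held 821 and 756 CPM of Cd83 (C57BL/6F, C57BL/6M), near the 787 and 1004 CPM of dark zone cells and under the 2925 and 3208 CPM of light zone cells. Their Nfkbia levels of 610 and 527 CPM lay between those of light zone cells (873 and 708 CPM) and dark zone cells (370 and 239 CPM). Cd40 was 153 and 102 CPM in light-to-dark zone cells, 171 and 181 CPM in light zone cells and 94.5 and 69.3 CPM in dark zone cells. The comparison with light zone cells called 0 of 10 members, with 1 member at an unadjusted p under 0.05 in edgeR and 0 called by DESeq2, where 0.173% of 10995 genes were called. The change of Cd83 was -1.95 ± 0.44 (adjusted p = 0.2 in edgeR). With no filter on low counts, or with the pools of the 2 states alone, Cd83 was called (adjusted p = 0.0424 and 0.00372 in edgeR).

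In both pools activated pre-plasma cells had low Cd83 and a Cd40 level above that of plasma cells, although this difference of Cd40 was not called. Their Cd83 was 62.0 and 111 CPM, their Cd40 71.8 and 113 CPM and their Nfkbia 483 and 521 CPM. Of the 738 Cd83 counts in these 29 cells, 40.2% came from 1 cell, as did 18.1% of the 777 Cd40 counts from the cell with the most. Plasma cells held 62.8 and 33.2 CPM of Cd83, 16.5 and 3.88 CPM of Cd40 and 589 and 352 CPM of Nfkbia. Against light zone cells, Cd83 was the 1 member called of 10 (-5.18 ± 0.51, adjusted p = 0.000295 in edgeR), where 0.737% of 10995 genes were called, 0.573% lower. Cd40 (-0.96 ± 1.14) and Nfkbia (-0.63 ± 0.37) were not called there, nor were Rel (-3.61 ± 1.79), Nfkb1 (-2.81 ± 1.41) or Traf1 (-2.76 ± 1.71).

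Against plasma cells, 0 of 10 members were called in activated cells, with 1 at an unadjusted p under 0.05 in edgeR and 0 called by DESeq2, where 0.291% of genes were called, 0.282% lower and 0.0091% higher. That member was Cd40, with a change of 3.06 ± 1.24 (adjusted p = 0.693 in edgeR). With thinned cells 0 of the 10 members had an unadjusted p under 0.05 in edgeR. The simulated data with known 4-fold changes, set in genes drawn at random, gave a recovery of 0% in each of these comparisons of small states. Differences of that size would thus be missed in them for such genes. Depth also differed, with a median of 229914 counts per activated cell, 161602 per light-to-dark zone cell, 43120 per light zone cell and 16638 per memory-like cell.

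Memory-like cells had unequal levels in their 2 pools. Cd83 was 141 and 403 CPM, Nfkbia 993 and 489 CPM, and Cd40 4.08 and 78.5 CPM. Of the 64 Cd40 counts in these 63 cells, 96.9% came from 1 cell, and 73.6% of the Cd83 counts did likewise. Against plasma cells 0 of 10 members were called in edgeR, with 2 at an unadjusted p under 0.05, where 0.0728% of genes were called, 0.0455% higher and 0.0273% lower. These 2 were Cd83, with 272 against 48 CPM (2.39 ± 0.46, adjusted p = 0.0745 in edgeR), and Nfkb2, with 1.65 against 30.4 CPM (-4.15 ± 1.31, adjusted p = 0.167 in edgeR), and DESeq2 called both. All genes tested had a median change of -1.48 in this comparison, beside 0.66 for the members.

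The 17 pre-memory cells, which entered no test, held 2674 and 3145 CPM of Cd83, 721 and 732 CPM of Nfkbia and 88.4 and 230 CPM of Cd40. Their Cd83 and Nfkbia levels were near those of light zone cells. Rel was 61.3 and 153 CPM in them, 55.4 and 56.8 CPM in light zone cells and 4.56 and 3.92 CPM in plasma cells. Cd83 was higher in light zone and pre-memory cells than in every other state in both pools, and the pools did not give 1 order of the lower states.

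To match total counts, each cell with at least 10000 counts was thinned to 10000, which kept 1271 cells. Thinning matches counts only, and the median spike-in share of all cells was 0.886% in activated and 4.34% in light zone cells. Cd83 was then found in 88.5% of 244 light zone cells (exact 95% interval 83.8% to 92.2%), 57.3% of 415 dark zone cells (52.4% to 62.2%), 20.7% of 29 activated cells (7.99% to 39.7%) and 5.66% of 477 plasma cells (3.76% to 8.13%). Nfkbia was found in 47.5% of light zone cells (41.1% to 54.0%), 30.1% of dark zone cells (25.7% to 34.8%), 69.0% of activated cells (49.2% to 84.7%) and 43.6% of plasma cells (39.1% to 48.2%). Intervals cover counting error only. The share with Cd83 thus dropped from light zone to plasma cells, while plasma cells held Nfkbia in a share above that of dark zone cells. Unthinned, Cd83 was found in 86.7%, 60.8%, 48.3% and 11.7% of the cells of these 4 states and Nfkbia in 48.9%, 33.4%, 75.9% and 49.0%.

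Cd40 was found, after thinning, in 20.1% of light zone cells (15.2% to 25.7%), 10.4% of dark zone cells (7.60% to 13.7%), 31.0% of activated cells (15.3% to 50.8%) and 2.10% of plasma cells (1.01% to 3.82%). Rel was found in 13.5% of light zone, 15.2% of dark zone, 3.45% of activated and 1.05% of plasma cells. Icam1 was found in 18.4%, 17.6%, 31.0% and 6.29% of these states. The shares of Cd40 and Icam1 in activated cells go against their CPM, which were lower than in light zone cells, so no order is read from them.

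The number of members found per thinned cell differed between states, and at least 3 members were found in only a part of the cells. That part was 68.75% of light-to-dark zone, 39.8% of light zone, 29.6% of dark zone and 20.7% of activated cells. These numbers follow the shares of single members, and whether members occur together was not tested. The mean number of the 10 members found per thinned cell was 3.60 in light-to-dark zone cells, 3.24 in pre-memory, 2.31 in light zone, 2.03 in activated, 1.85 in dark zone, 0.778 in plasma and 0.707 in memory-like cells. In the 48 light-to-dark zone cells Icam1 was found in 45.8% (31.4% to 60.8%), Traf1 in 35.4% (22.2% to 50.5%) and Nfkb2 in 33.3% (20.4% to 48.4%). In light zone cells the same genes were found in 18.4%, 13.1% (9.15% to 18.0%) and 9.84% (6.40% to 14.3%). These 3 shares were higher in light-to-dark zone cells, but the fitted CPM means of the 3 genes were not, and Nfkb2 was 90.7 and 34.6 CPM in light-to-dark zone cells and 51.6 and 75.4 CPM in light zone cells, so no order of expression is read from them.

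**Figure D4:**
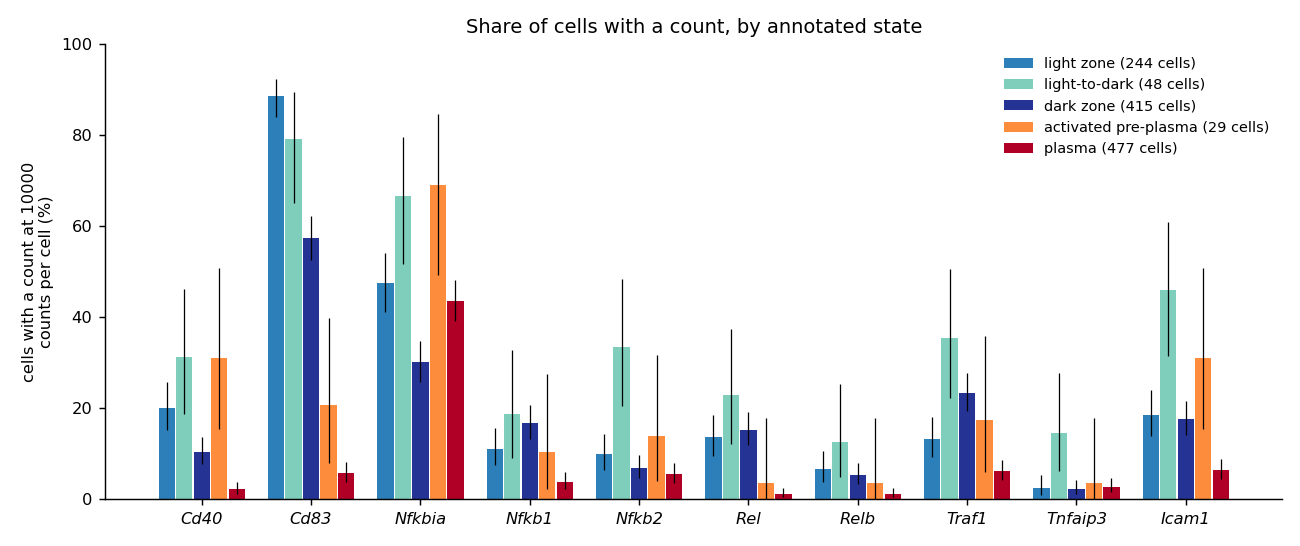
Share of cells with a count of each member after thinning to 10000 counts, as bars for 5 annotated states with exact 95% intervals as lines. Cd83 runs from 88.5% of light zone to 5.66% of plasma cells, and Nfkbia is found in 30.1% of dark zone and 43.6% of plasma cells.

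Pairs of members in the same cell largely restate the shares of each gene. Cd83 and Nfkbia were found together in 45.9% of thinned light zone cells, 58.3% of light-to-dark zone, 21.2% of dark zone, 10.3% of activated and 3.77% of plasma cells. Nfkbia without Cd83 was found in 1.64% of light zone cells, 58.6% of activated cells (17 of 29) and 39.8% of plasma cells. Cd40 without Cd83 was found in 2.87% of light zone and 24.1% of activated cells (7 of 29). With Cd83 in 88.5% of light zone and 5.66% of plasma cells, no association between the genes is read from these values.

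Surface CD86, a costimulatory protein that is high on light zone B cells, was recorded as the inverse hyperbolic sine of the fluorescence divided by 10. It ran from 1.42 to 4.41 (median 3.03) in the light zone gate and from -1.56 to 3.48 (median 1.75) in the dark zone gate. Cells of these 2 gates were divided into 4 bins of CD86 within each of 19 plates. Pooled Cd83 was 955, 1378, 1995 and 2209 CPM from the lowest to the highest bin, and Nfkbia 289, 465, 617 and 672 CPM. Cd40 was 45.0, 92.0, 198 and 148 CPM. All 3 genes were lower in the lowest bin than in the highest, and the share of cells annotated light zone moved with them, at 15.1%, 30.2%, 47.2% and 53.0%. The share from the light zone gate was 0.559%, 26.6%, 90.3% and 97.0%, so the outer bins largely repeat the comparison of the 2 gates.

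Among annotated light zone cells alone, the 4 bins of CD86 held 2595, 3530, 3152 and 2645 CPM of Cd83 and 726, 702, 809 and 657 CPM of Nfkbia, with no steady order. Light zone cells were then divided at the median CD86 of their plate, giving 126 high and 133 low cells on 17 plates. Cd83 stood at 3412 ± 1216 CPM in the high and 3555 ± 1111 CPM in the low cells (SD, n = 17 plates), higher on 7 and lower on 10 plates (-0.08 ± 0.13). Nfkbia stood at 918 ± 606 against 843 ± 440 CPM (0.03 ± 0.42). Of the 8 members tested, 0 were called and 0 had an unadjusted p under 0.05 in edgeR or a call in DESeq2, where 0.0626% of 3193 genes were called. High and low cells differed in phase, with 33.3% of high and 57.1% of low cells in G1, and in gate, with 90.5% and 48.9% from the light zone gate. With all cells of the light zone gate in place of annotated light zone cells, 0 of 4361 genes were called, with 75 at an unadjusted p under 0.05 in edgeR, and the part of phase was not tested. On simulated data 16% of 4-fold and 1% of 2-fold changes were recovered in this comparison. The changed genes were drawn at random from all those tested, and no plate effect was simulated. Most differences of these sizes would be missed for such genes, and no rate was obtained for single members. For Cd83 and Nfkbia the standard errors of 0.13 and 0.42 given above describe the precision of the fit.

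Per plate, Spearman's correlation between CD86 and Cd83 was taken over single cells, with the transcript as CPM per cell. Its median was 0.27 over 19 plates for the 690 cells of the 2 gates, positive on 17 plates. Among annotated light zone cells it was 0.06, positive on 13 of 19 plates, and among dark zone cells 0.19, positive on 14 of 19. For Nfkbia it was 0.16 in the 2 gates and -0.0041 in light zone cells, and for Cd40 0.17 and -0.08. The transcript of CD86 itself gave 0.15 in the 2 gates. Cells of a plate share its library and staining, and these values are descriptions of sparse counts.

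**Figure D5:**
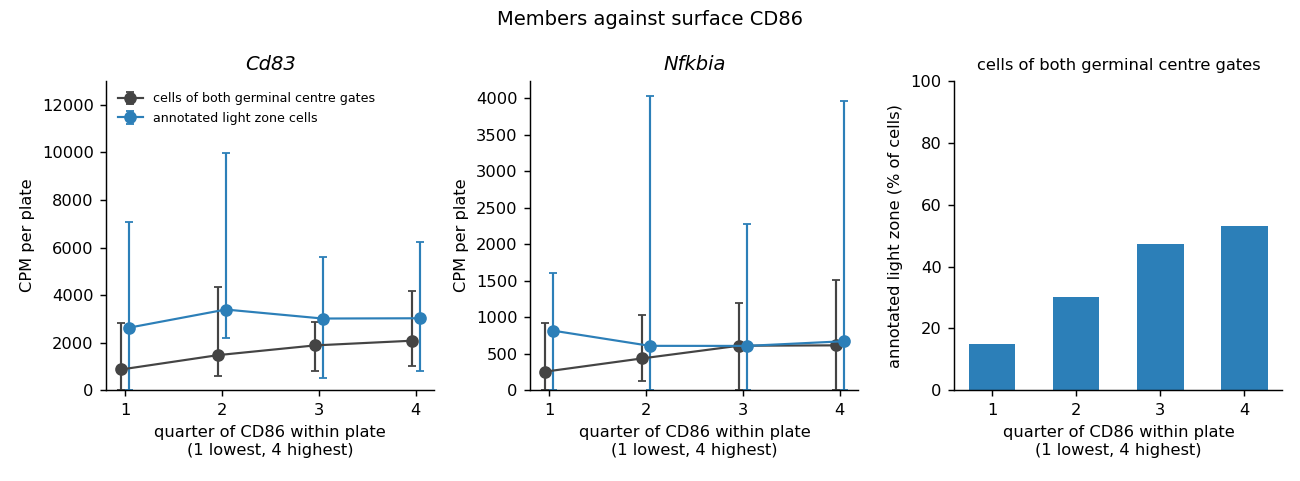
Cd83 and Nfkbia by 4 bins of surface CD86 within plate, as the median over plates in CPM with the plate range as a line, for cells of both germinal centre gates and for annotated light zone cells, and the percentage of cells annotated light zone as bars. That percentage goes from 15.1% in the lowest to 53.0% in the highest bin, and the medians of light zone cells keep no steady order.

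Between the sampleIDs, germinal centre B cells of C57BL/6M held 1842 ± 457 CPM of Cd83 and those of C57BL/6F 1337 ± 226 CPM (SD, n = 10 plates each). The ranges, 1136 to 2629 and 951 to 1631 CPM, overlapped. The change of 0.44 ± 0.15 was not called in edgeR (adjusted p = 0.388) and was called in DESeq2 (adjusted p = 0.0436). In edgeR 0 of 10 members were called, with 1 at an unadjusted p under 0.05, where 0.552% of 7423 genes were called (0.539% higher and 0.0135% lower), and without plate 6 this count was again 0, with Cd83 at 0.44 ± 0.14 (adjusted p = 0.306 in edgeR). No member was called for a difference of its change between the sampleIDs, tested as an interaction. The lowest unadjusted p in edgeR was 0.00862, for Cd40 from the pre-plasma to the plasma gate (difference -6.62 ± 2.17, adjusted p = 1.0).

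A wider list of 49 genes of the pathway was counted beside the members, and its values are fitted log2 changes from edgeR, which exceed the ratio of means where many pools are at 0. From germinal centre B to plasma cells 13 of 41 tested fell and 3 rose, where 15.8% of all genes tested were lower and 15.1% higher. The falling genes included the cytokine genes Lta (-9.81) and Ltb (-4.37), the costimulatory gene Cd86 (-6.15), the adhesion and signalling receptor gene Slamf1 (-7.86), the enzyme gene Il4i1 (-6.99), the adaptor gene Traf5 (-2.86), the death receptor gene Fas (-3.04) and the kinase gene Ikbkb (-1.30). Irf4, a transcription factor needed for plasma cells, rose by 6.30, Cflar, which encodes the caspase-8 regulator c-FLIP, by 1.40 and Tax1bp1, an adaptor of A20, by 0.61. The list's median change was -0.95, beside -0.25 for all genes. Of the 5 further IkB family genes on the list 3 were tested and none was called, and Rela, the RelA gene, was not called either.

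The pre-plasma gate against the germinal centre gates gave 10 lower genes and 1 higher gene of 42 tested, where 8.14% of all genes tested were lower and 7.09% higher. Tnf (-8.02), Lta (-4.20), Il4i1 (-3.80), Cd86 (-3.48) and Slamf1 (-3.35) fell most, and Irf4 rose by 5.76. The plasma gate against the pre-plasma gate gave 7 lower genes and 1 higher of 36, where 9.69% of all genes tested were lower and 8.42% higher. Among the lower genes were Cd86 (-6.92), Batf (-3.04), the IkB-epsilon gene Nfkbie (-2.59) and Myc (-2.50). Without the annotated germinal centre cells 0 were lower and 1 was higher, where 652 of 6094 genes were called, 230 lower and 422 higher. Il4i1, whose enzyme is secreted by B cells after CD40 and IL-4 signals, was the only gene of the list called between the zones, at -2.59 in the gates (37 tested) and -2.32 in the cells (34 tested). Activated against light zone cells called Cd86 (-6.11) and Il4i1 (-7.70) of 49. The Bcl2a1 genes in this list are close paralogs, and reads may be divided between them.

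Over the 14 pools of 2 sampleIDs and 7 states, the genes most like Cd83 among 7282 genes with a mean of at least 10 CPM were Sorl1 (Pearson r = 0.961), Ptpn6 (0.951) and Limd2 (0.951). The level of Sorl1 was 118 CPM in light zone and 0.0236 CPM in plasma cells. Those most like Nfkbia were Snn (0.706), Bcl2a1d (0.679) and Auh (0.648), so no gene followed it as closely as Cd83 was followed. Those most like Icam1 were Mtmr14 (0.973), Alas1 (0.972) and Dalrd3 (0.969). Among the members, Cd83 and Rel had an r of 0.867, Nfkb2 and Relb 0.813, and Cd83 and Cd40 0.735, while Nfkbia and Nfkb1 had -0.316. The pools share 2 sampleIDs and differ in depth, and these values are descriptions.

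Markers of red and stromal cells were low in every state, and those of T cells in every state but pre-memory cells. The T cell list, of which 5 of 7 genes were in the matrix, summed to between 0 and 80.5 CPM, the highest value coming from Cd40lg in pre-memory cells, and Cd3d had 11 counts in 9 cells of all 1367. The gene of CD40 ligand had 284 counts in 5 cells. The myeloid and dendritic list was not low throughout and summed to between 48.3 and 276 CPM. In plasma cells it summed to 128 CPM, beside 124 CPM of germinal centre markers. Csf1r was at 0 in 6 of 7 states, and Lyz2 had 326 counts in 66 cells. The list had 3939 counts in dark zone and 5823 in plasma cells, so most of its counts came from other genes. The red cell and stromal list summed to at most 1.08 CPM. Germinal centre markers summed to 2439 CPM in light zone, 3528 CPM in dark zone, 240 CPM in activated and 124 CPM in plasma cells, and plasma markers to 3634, 4976, 4991 and 18951 CPM in the same states. Memory-like cells had the highest sum of plasma markers, 25566 CPM, and Bcl6 was at 0 in activated cells.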

How the data were processed

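Single-cell RNA was measured in 20 samples, here 20 plates. The authors deposited whole-number counts per gene and cell, from libraries made with 22 preamplification cycles per the labels' protocols. The submitters' processing notes name, without giving their roles, the build mm10 and the tools HTSeq 0.9.1 and STAR 2.5.3a. They also deposited a table of cells with gate, state and phase, the inverse hyperbolic sine of surface signals, and the spike-in share of each cell as a fraction. Counts were summed per plate and class with at least 5 cells, or per sampleID and state for small states. Low genes were removed with filterByExpr, pools were scaled by TMM, and 11 comparisons were fitted with edgeR 4.0.16 (glmQLFit, glmQLFTest; R 4.3.3), with plate as a block or sampleID as a covariate and Benjamini-Hochberg adjustment at 0.05. Standard errors of log2 changes were derived as the size of the change divided by the square root of the F statistic of edgeR's test. DESeq2 1.42.0 was an alternative. Scripts were tested on simulated data, in which 4-fold changes were recovered for 40% of changed genes between the zone gates (5904 genes), 50% between the pre-plasma and germinal centre gates (7150 genes) 29% between the plasma and pre-plasma gates (6564 genes), 24% between dark and light zone cells (5447 genes) and 16% by CD86 (3193 genes). All 10 members were described in every comparison, and called genes of a wider list of 49 were counted, with values for most of those called; 1 listed gene is not reported here by name. The 3 genes most like each of the 3 members with the most counts were named by Pearson correlation of log2(CPM + 1). The members and lists were chosen with earlier results of these data known. No doublet caller was run. Intervals are Clopper-Pearson at 95%. Other settings were filters, scaling, thinned cells, blocks, sampleIDs, phases and pools.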

Additional observations from a re-analysis of the deposited data

Results flagged for a closer look

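Plate levels were examined within each gate and sampleID, in 79 groups of 9 or 10 plates on the log2(CPM + 1) scale, and 13 had a highest or lowest plate far from the others. With normally distributed levels, chance alone would flag about 1 in 20 such groups. Many pools here were at 0 or near it, so the 13 are not read against that rate. In C57BL/6F, plate 2 was lowest in 4 of them: Icam1 at 0 CPM (next plate 15.3), Nfkb1 at 0.992 CPM (next 37.1) and Traf1 at 0 CPM (next 63.6) in the dark zone gate, with 16 cells, and Nfkbia at 1.52 CPM (next 295) in the plasma gate, with 12 cells. Cd40 was at 0 CPM in the light zone gate of plate 4 (next 52.2), and Nfkbia at 0 CPM in the pre-plasma gate of plate 6 (next 287), which had 5 cells there. In C57BL/6M, plate 16 was lowest for Nfkbia in the pre-plasma gate, at 38.5 CPM (next 139), and for Rel in the dark zone gate, at 0.368 CPM (next 11.3). Plate 15 had 0 CPM of Nfkb1 in the pre-plasma gate (next 19.2) and the highest Rel of the plasma gate, at 48.2 CPM (next 2.01). Plate 14 had 0 CPM of Nfkb2 in the light zone gate (next 20), and plate 13 had 0 CPM of Traf1 in the pre-plasma gate (next 9.2). Relb in the plasma gate stood at 24.6 CPM on plate 20 and at 0 on the next plate.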

How the results depend on the processing

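Of 809 values of single members under other settings, 699 kept direction and side of the threshold, and 62 changed sign, whether called or not. A further 25 kept direction and passed the threshold only under the other setting, and 23 kept direction and lost it. The cause of these changes was not tested. Genes called numbered as follows. Dark against light zone cells gave 77, and 569 with DESeq2, 133 with no filter, 41 with no plate block, 14 in C57BL/6F, 31 in C57BL/6M and 4 in G1 cells. Plasma against germinal centre cells gave 2367, and 3629 with DESeq2, 1013 in C57BL/6F and 1379 in G1. Dark against light zone gate gave 18, and 135 with DESeq2, 50 with no filter, 28 with thinned cells, 0 in C57BL/6F and 5 in C57BL/6M. Pre-plasma against germinal centre gates gave 1089, and 1982 with DESeq2, 529 in C57BL/6F and 495 in C57BL/6M. Plasma against pre-plasma gate gave 1189, and 2364 with DESeq2, 302 in C57BL/6F, 764 in C57BL/6M and 652 without annotated germinal centre cells. The CD86 comparison gave 2, and 65 with DESeq2, 1 with DESeq2 size factors, 11 with no filter, 1 without immunoglobulin genes, and 0 with thinned cells, no plate block, either sampleID, the outer of 3 bins or light zone gate cells. Light-to-dark against light zone cells gave 19, and 150 with DESeq2, 39 with no filter, 112 with the pools of the 2 states alone and 821 with pools per plate and state. Activated against light zone cells gave 81, and 548, 554 and 519 with DESeq2, the 2 states alone and plate pools. Activated against plasma cells gave 32, and 324, 459 and 131 with these, 80 with no filter and 100 with thinned cells. Memory-like against plasma cells gave 8, and 1376, 19 and 4311 with these, 30 with DESeq2 size factors and 47 with no filter. C57BL/6M against C57BL/6F gave 41, and 99 with DESeq2 and 21 with thinned cells.

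Members called lower were 2 between the zones' cells, and 1 in C57BL/6F or G1. Between the zone gates they were 1, and 3 with DESeq2, 2 with no filter or no plate block and 0 in C57BL/6F. In the pre-plasma gate they were 4, and 7 with DESeq2 and 1 in either sampleID. In the plasma gate they were 3, and 1 with thinned cells or in C57BL/6M and 0 in C57BL/6F or without annotated germinal centre cells. In light-to-dark zone cells they were 0, and 1 with no filter or the 2 states alone. In memory-like cells they were 0, and 1 with DESeq2 and 3 with plate pools, and members called higher were 0, and 1 with DESeq2, its size factors, no filter or plate pools. Between sampleIDs members called higher were 0, and 1 with DESeq2.

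Log2 changes that turned sign belonged to members not called in the main setting. With plate pools of memory-like cells, some members that turned sign passed the threshold there. Between the zones' cells they were Nfkb1 (-0.38 in C57BL/6F, -0.40 in G1), Nfkb2 (0.80) and Traf1 (-0.10) in C57BL/6F, and between the zone gates Nfkb1 (-0.18) and Rel (0.33) in C57BL/6F. With no plate block Tnfaip3 was 0.36 in plasma cells and Nfkbia 0.026 in the plasma gate, and Traf1 was 0.82 there without annotated germinal centre cells. For CD86 they were Cd83 (0.0066 in C57BL/6M, 0.028 with the outer of 3 bins, 0.031 in gate cells), Nfkbia (-0.55 thinned, -0.47 in C57BL/6F, -0.20 in gate cells), Nfkb1 (-0.80 with no block, -1.06 in gate cells), Rel (-0.96 in C57BL/6M, -0.72 in gate cells), Traf1 (-0.20 in C57BL/6F, -0.42 in gate cells) and Icam1 (0.29 with no block). In light-to-dark zone cells thinning gave Nfkbia 0.051, Nfkb2 0.18, Relb 0.37, Traf1 0.31, Tnfaip3 1.05 and Icam1 0.46, plate pools gave Traf1 0.072 and Tnfaip3 1.82, and the 2 states alone gave Tnfaip3 1.94. Tnfaip3 in activated against light zone cells was 0.27 thinned and 2.82 with plate pools. In activated against plasma cells thinning gave Cd83 -0.16, Nfkbia -0.17, Nfkb1 0.045, Nfkb2 -1.50, Rel -0.63, Relb -0.54 and Traf1 0.063. Plate pools gave Cd83 -0.66, Nfkbia -0.034, Nfkb2 -0.83, Relb -0.56 and Tnfaip3 1.48, and the 2 states alone gave Rel -1.43. In memory-like cells plate pools gave Nfkbia -0.88, Traf1 -0.31, Tnfaip3 -7.00 and Icam1 -8.24, the 2 states alone Tnfaip3 -0.51 and Icam1 -2.05, thinning Nfkb1 0.044 and Traf1 -0.47, and DESeq2 Nfkb1 0.0019. Between sampleIDs thinning gave Cd40 0.71, Nfkb2 0.17, Rel -0.093 and Traf1 0.34, and Cd40 was 0.0032 with no filter and 0.0021 without plate 6 or with at least 10 cells per pool.

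No paired analysis was possible because the labels give no replicate numbers that C57BL/6M and C57BL/6F share, whereas gates, the larger states and CD86 were compared within plates, with plate as a block. At least 10 cells per pool could not be run for CD86. The subset without annotated germinal centre cells and the fit without plate 6 were chosen after seeing the data.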
